A study of Mus musculus with 38 samples.

Results

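The natural killer gene complex of mouse chromosome 6 holds most of the killer cell lectin-like receptor genes. The contact of the whole gene family with the nuclear lamina was examined here in pluripotent cells. The genes were taken as every entry, of any biotype, whose symbol starts with Klr followed by a letter from a to k, which gave 31 of the 78202 genes in the tables. Of these, 27 are protein-coding and 4 are pseudogenes (Klrb1-ps1, Klra11-ps, Klra14-ps and Klra13-ps). The measurements are CUT&RUN libraries of mouse embryonic stem cells, in which an antibody-tethered nuclease releases DNA near the antibody's target. LAP2B, which sits in the inner nuclear membrane, was profiled in cells with all lamins and the lamin B receptor (WT), without the receptor (LBRKO), without the 3 lamin genes Lmna, Lmnb1 and Lmnb2 (TKO), and without both (QKO). LMNB1, a lamin, and IGG, a negative control with a rabbit anti-mouse secondary antibody, were profiled in WT only. Each group held 3 libraries of 200000 cells, either naive cells in 2i + LIF medium (CHIR99021 at 3 µM, PD0325901 at 1 µM and LIF) or epiblast-like cells (EpiLC) made by 48 h in FGF at 20 ng/mL and activin A at 12 ng/mL.

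The lines limit what a genotype comparison can show. The WT and TKO lines came from littermates, LBRKO cells were derived from the WT line as several clones (the labels do not say which was profiled), and QKO is a single clone derived from the TKO line in which 1 of the altered Lbr alleles carries an in-frame deletion. Per the study's methods the WT line contained some cells with an additional chromosome 6 and chromosome 8, and the TKO line had an additional chromosome 8. Because IGG and LMNB1 were measured in WT cells only, a difference between lines in DNA content at these genes and a difference in LAP2B cannot be told apart. CUT&RUN reads are genomic DNA, so the values say nothing about whether a receptor is transcribed, and the cell type and genotype labels could not be checked against marker transcripts. The labels do not say that replicates were separate cultures, so p-values measure only the spread between these libraries.

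These genes encode C-type lectin-like receptors of natural killer (NK) cells, which weigh inhibitory against activating signals before killing a target cell. The Ly49 receptors made by the Klra genes and the heterodimers of CD94 (Klrd1) with NKG2 chains (Klrc genes) read MHC class I on other cells, while NKG2D (Klrk1) recognises ligands induced by stress. The receptors of the Klrb1 group recognise other lectin-like proteins, of the Clec2 family, that are encoded among them. Pluripotent cells are not NK cells, and lineage-specific gene arrays that a cell does not use are often found in lamina-associated domains, gene-poor and AT-rich stretches of chromatin at the nuclear periphery.

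All 31 genes lie on chromosome 6. In the GRCm39 build with GENCODE M39 coordinates, 29 of them form a cluster at chr6:128586190-131224330, a span of 2.64 Mb. From the centromere side the cluster holds 6 Klrb1 genes, then Klre1, Klrd1 and Klrk1, then Klrc3, Klrc2 and Klrc1, then Klri1, Klri2 and Klrh1, and last 14 Klra genes. Klrg1, an inhibitory receptor for cadherins, lies outside it at chr6:122246981-122259914, and Klrg2 lies far away at chr6:38595375-38614222.

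Base composition separated Klrg2 from the cluster. The GC content over the whole gene had a median of 36.5% in the 31 genes (34.6% to 48.1%), against 45.3% over all genes tested, and 4.06% of those genes lay below the members' median. Klrg2 was the 48.1%. In windows from 250 bases before to 50 after the annotated gene start, the 31 genes had a median of 2 CG dinucleotides (0 to 10) and 83.9% held at least 1, against a median of 4 and 91.1% in the 78128 windows of all genes, 23.3% of which held at least 10. The windows of Klrg2 (chr6:38614173-38614472, minus strand), Klrc2 (chr6:129637603-129637902, minus strand) and Klra10 (chr6:130261833-130262132, minus strand) are shown because these 3 genes gave the most different LAP2B results below. CG is in capitals and reads the same on both strands.
Klrg2: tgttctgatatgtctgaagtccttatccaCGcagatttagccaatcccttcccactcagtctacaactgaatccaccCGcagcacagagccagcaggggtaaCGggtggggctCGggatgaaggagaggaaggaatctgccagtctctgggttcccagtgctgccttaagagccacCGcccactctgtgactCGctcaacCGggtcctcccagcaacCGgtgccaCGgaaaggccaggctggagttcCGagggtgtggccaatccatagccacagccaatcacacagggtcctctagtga
Klrc2: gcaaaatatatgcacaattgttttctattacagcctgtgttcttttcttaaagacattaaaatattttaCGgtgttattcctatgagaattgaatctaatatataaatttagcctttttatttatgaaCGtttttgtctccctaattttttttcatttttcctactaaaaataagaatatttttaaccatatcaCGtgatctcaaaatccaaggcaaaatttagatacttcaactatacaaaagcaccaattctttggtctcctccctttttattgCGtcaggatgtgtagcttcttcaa
Klra10: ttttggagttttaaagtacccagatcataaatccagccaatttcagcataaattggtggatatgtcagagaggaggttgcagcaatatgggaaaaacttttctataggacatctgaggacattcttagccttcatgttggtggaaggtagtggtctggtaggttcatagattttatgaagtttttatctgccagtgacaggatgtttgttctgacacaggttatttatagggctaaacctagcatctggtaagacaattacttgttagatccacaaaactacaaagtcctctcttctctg
The Klrg2 window held 10 CG, the highest number among the members, the Klrc2 window held 4 at a GC content of 28.7%, and the Klra10 window held 0.

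Part of the sequence of these genes occurs more than once in the genome, in sister genes that arose by duplication or in repeats elsewhere. Of all 50-base words in a gene, a median of 86.0% occurred once in the genome (46.5% to 99.4%), and 12 members had under 80%. Klrc2 was lowest at 46.5%, with 39.5% of its words also present in Klrc1, followed by Klrc1 at 51.7% and Klra9 at 53.6%. Reads in repeated words may be placed in a sister gene or in another copy of a repeat. Single values of these 12 genes (Klrc1, Klrc2, Klrc3, Klra2, Klra3, Klra8, Klra9, Klra10, Klra17, Klrb1a and the pseudogenes Klra11-ps and Klra14-ps) are therefore uncertain. At Klra17 76.2% of words were unique but only 3.10% occurred in other members, and its repeated words had a median of 1906 copies in the genome. The mouse strain of the lines, and with it the set of Ly49 genes they carry, is not given in the sources used here. Words shared among members are shown as examples, with the repeated 50 bases in capitals and 25 flanking bases in lower case. The first lies between exons of Klra11-ps (chr6:130060059-130060158, minus strand) and recurs in Klra8, Klra14-ps, Klra9, Klra10 and Klra3, and the second lies between exons of Klrc3 (chr6:129616166-129616265, minus strand) and recurs in Klrc2 and Klrc1.
Klra11-ps: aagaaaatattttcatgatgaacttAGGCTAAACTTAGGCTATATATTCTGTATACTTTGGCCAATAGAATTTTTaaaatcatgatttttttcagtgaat
Klrc3: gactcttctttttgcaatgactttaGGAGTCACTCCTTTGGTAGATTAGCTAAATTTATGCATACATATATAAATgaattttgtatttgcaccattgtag
The first word has 6 copies in the genome and the second 3, all of them inside these genes.

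Read counts recovered from the values, summed over all genes, ran from 12028659 to 45689196 per library. Each of the 31 genes had 10 to 2040 per library (median 236). A read that spans bins or lies in overlapping genes can count more than once, and reads outside genes are left out. Values are given as relative signal, which is the deposited spike-in scaled signal of a gene divided by that of the median gene of the same library, so LAP2B, LMNB1 and IGG tables can be set side by side although each was scaled separately. A deposited value is a sum over the 1 kb bins a gene touches, and levels of different genes are therefore compared per bin. Changes are log2 ratios with SE from limma over all 70381 genes tested, and a change passed the test at a Benjamini-Hochberg adjusted p under 0.05. On the spike-in scale the median of all genes moved by +0.21 in naive LBRKO, -0.65 in naive TKO, -1.24 in naive QKO, -0.20 in EpiLC TKO and -0.75 in EpiLC QKO, and the relative scale removes these shifts.

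In WT cells the receptor cluster carried more LAP2B and LMNB1 than the IGG background. In naive cells the median relative signal per bin of the 29 cluster genes was 0.395 ± 0.057 for LAP2B, 0.505 ± 0.11 for LMNB1 and 0.193 ± 0.029 for IGG (SD, n = 3). In EpiLC it was 0.255 ± 0.029, 0.363 ± 0.058 and 0.139 ± 0.0077. Over all genes the median per bin was 0.208, 0.209 and 0.206 in naive cells and 0.203, 0.206 and 0.201 in EpiLC. Of the 31 genes, 29 in naive cells and 27 in EpiLC had all 3 LAP2B libraries above all 3 IGG libraries, where 28.3% and 17.9% of all genes did. For LMNB1 30 and 29 did so, where 33.2% and 28.4% of all genes did. The median ratio to IGG was 2.05-fold and 1.79-fold for LAP2B and 2.75-fold and 2.57-fold for LMNB1.

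Ranked against all genes tested by signal per bin, the receptor genes stood high. Their median percentile was 86.8 for naive LAP2B and 91.5 for naive LMNB1, but 46.5 for naive IGG. In naive cells 24 members were above the 75th percentile for LAP2B, 27 for LMNB1 and 3 for IGG. In EpiLC the median percentile was 71.1 for LAP2B, 88.4 for LMNB1 and 21.2 for IGG. Across the 31 genes LAP2B and LMNB1 per bin ran together (r = 0.93 naive and 0.89 EpiLC), and LAP2B ran less closely with IGG (r = 0.69 and 0.45). These are descriptions over neighbouring genes of the same libraries, which also share their base composition.

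**Figure D1:**
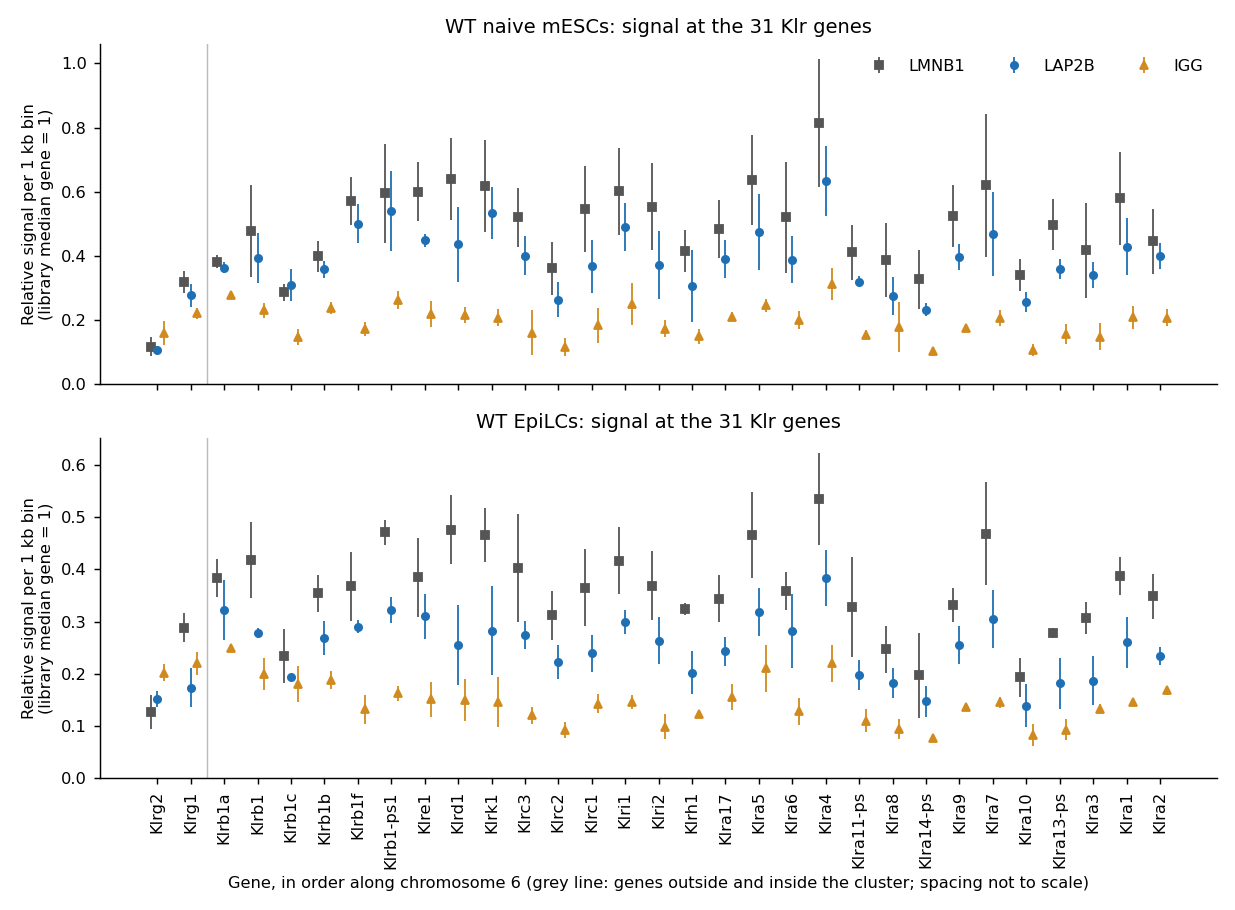
Relative signal per 1 kb bin (mean ± SD, n = 3) of LMNB1, LAP2B and IGG at the 31 genes in chromosome order, in WT naive cells (top) and WT EpiLC (bottom). The library's median gene is 1 before division by bins, and the naive medians of all genes per bin were 0.209, 0.208 and 0.206. LMNB1 and LAP2B lie above IGG across the cluster, with naive medians of 0.505, 0.395 and 0.193, while Klrg2 at the left end lies below IGG.

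Klrk1, the NKG2D gene in the middle of the cluster (chr6:129587286-129600827), had more LAP2B and LMNB1 than IGG. Its naive WT libraries had a relative signal of 7.04, 8.77 and 6.63 for LAP2B, 9.92, 6.34 and 9.69 for LMNB1 and 3.22, 2.98 and 2.50 for IGG. Neither LAP2B nor LMNB1 overlapped IGG. Klrg2, whose product is a lectin-like membrane protein, showed the opposite order on this relative scale. Its naive WT libraries had 2.15, 1.84 and 2.35 for LAP2B, 1.71, 2.93 and 2.35 for LMNB1 and 2.58, 4.01 and 2.96 for IGG. All its LAP2B libraries were below every IGG library, and its LMNB1 libraries overlapped IGG.

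In naive LBRKO cells LAP2B was lower than in WT over most of the cluster. Of the 31 genes 23 fell and 1 rose, where 27.7% of all genes fell and 28.9% rose, and the members' median change was -0.97 against 0.04 over all genes. The loss was uneven. All 14 Klra genes fell (median -1.15), as did Klri1, Klri2 and Klrh1 (median -1.0) and the 3 Klrc genes (median -0.74), whereas of the 6 Klrb1 genes Klrb1 and Klrb1f fell and of Klre1, Klrd1 and Klrk1 only Klrk1 fell. For 23 genes all LBRKO libraries lay below all WT libraries, where 28.5% of all genes did. They lay above WT at Klrg2 and at Klrb1b, where 28.9% of all genes did. Klrb1b, inside the cluster, had 4.60, 5.11 and 5.29 in WT and 5.59, 5.49 and 6.45 in LBRKO, but its change of 0.22 ± 0.16 did not pass (limma adjusted p = 0.238). With spike-in scaled values 17 fell and 1 rose, where 17.8% and 28.2% of all genes did.

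Klra10, a Ly49 gene at chr6:130243083-130261882, fell the most. Its naive relative LAP2B signal was 4.49, 5.55 and 4.52 in WT and 2.20, 1.31 and 1.64 in LBRKO, with IGG at 2.42, 1.84 and 1.81 in WT. On this relative scale the LBRKO libraries were all below WT and overlapped IGG, and the change was -1.47 ± 0.24 (SE, limma adjusted p = 7.8e-07). In the spike-in scaled values the LBRKO libraries were also all below WT, but all above IGG. The spike-in constant for IGG is not given in the sources used here, so whether LAP2B reached background at Klra10 in LBRKO cannot be decided. Klra3, which encodes an inhibitory Ly49 receptor, changed by -1.25 ± 0.23 (limma adjusted p = 1.01e-05). Klra17, the Ly49Q gene expressed by plasmacytoid dendritic cells, had 16.8, 21.1 and 15.9 in WT and 8.73, 7.44 and 7.47 in LBRKO. Its groups did not overlap, and it fell by 1.17 on the log2 scale (SE 0.14, limma adjusted p = 2.17e-10).

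At the other end of the cluster, Klrb1 (chr6:128682799-128700022), of the NKR-P1 group, had 7.28, 9.00 and 6.08 in WT and 5.28, 3.77 and 4.36 in LBRKO. The groups did not overlap and the change was -0.72 ± 0.15 (limma adjusted p = 9.6e-05). Its neighbour Klrb1c, the NK1.1 antigen of C57BL/6 NK cells, gave a change of 0.03 ± 0.19 (limma adjusted p = 0.91). Klrd1, the shared CD94 chain, had 3.12, 4.55 and 2.79 in WT and 2.52, 2.23 and 2.07 in LBRKO, which did not overlap, but its change of -0.57 ± 0.26 did not pass (limma adjusted p = 0.0543). Klre1, whose product pairs with those of the Klri genes, likewise gave -0.37 ± 0.21 (limma adjusted p = 0.125).

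Klrg2 was the 1 member that rose. Its naive relative LAP2B signal was 2.15, 1.84 and 2.35 in WT and 5.23, 4.69 and 4.53 in LBRKO. All 3 LBRKO libraries lay above WT and above the 3 IGG libraries, and the change was 1.16 ± 0.14 (limma adjusted p = 1.07e-09). It also rose in naive TKO (0.93 ± 0.14, limma adjusted p = 3.66e-07) and naive QKO (1.24 ± 0.14, limma adjusted p = 4.75e-11). With spike-in scaled values it rose in naive LBRKO (1.34, limma adjusted p = 9.23e-06), but gave 0.32 in TKO (adjusted p = 0.318) and 0.03 in QKO (adjusted p = 0.925).

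In naive TKO cells LAP2B was lower than in WT over nearly the whole cluster, and in naive QKO cells it was lower again. In TKO 27 of the 31 genes fell and 1 rose, with a median change of -1.16 against -0.11 over all genes, where 27.6% of all genes fell and 21.8% rose. In QKO 30 fell and 1 rose, with a median of -2.35 against -0.23, where 42.5% fell and 33.1% rose. QKO was also below TKO: 30 members fell in that comparison (median -1.15 against -0.07), where 27.2% of all genes did. For 29 members in TKO and 30 in QKO all libraries were below WT, where 29.4% and 42.1% of all genes were. Klrg1, which did not pass in LBRKO or TKO, fell in QKO by 1.58 on the log2 scale (SE 0.20, limma adjusted p = 8.08e-10). Every naive comparison with WT uses the same 3 WT libraries. Without the division by the median gene, 30 members fell in TKO and 30 in QKO, where 47.5% and 65.5% of all genes did.

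On the relative scale, the naive LBRKO and TKO medians were near the IGG of naive WT cells and the QKO median was under it. From the Klrb1 genes to the Klra genes the naive LBRKO block medians per bin were 0.348, 0.291, 0.185, 0.199 and 0.178. Those of naive IGG were 0.233, 0.212, 0.160, 0.172 and 0.190. LBRKO exceeded IGG at 18 members in naive cells and 30 in EpiLC, where 46.8% and 48.0% of all genes did. The median ratio of the 31 genes to IGG, 2.05-fold in WT, was 1.05-fold for LBRKO, 0.933-fold for TKO and 0.405-fold for QKO. In QKO all 3 LAP2B libraries were below all 3 IGG libraries at 30 genes, where 34.4% of all genes were, and the median percentile among all genes was 15.8. In EpiLC the ratios to IGG were 1.24-fold for LBRKO, 0.919-fold for TKO and 0.725-fold for QKO, and in QKO 17 genes had all LAP2B libraries below IGG, where 10.1% of all genes did. At Klrk1 the naive levels were 4.71, 3.05 and 3.55 for LBRKO, 3.25, 1.4 and 2.34 for TKO and 0.844, 1.04 and 1.00 for QKO. LBRKO and TKO overlapped, and all QKO libraries were below both. On the relative scale the change of Klrk1 was -0.98 ± 0.21 in LBRKO (limma adjusted p = 7.71e-05), -1.71 ± 0.21 in TKO (adjusted p = 1.95e-09) and -2.83 ± 0.21 in QKO (adjusted p = 1.13e-17). Its naive spike-in scaled values were 10.8, 8.57 and 11.6 for LBRKO and 4.09, 2.93 and 3.48 for TKO. They were 0.921, 0.958 and 1.08 for QKO and 1.87, 1.22 and 1.55 for IGG in WT. LBRKO and TKO were thus above IGG at Klrk1 in these values. With the spike-in constant for IGG not given, whether LAP2B reached background at the receptor genes cannot be decided on either scale.

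Klrc2, which encodes the activating NKG2C chain (chr6:129624459-129637652), fell the most in both lines without lamins. Its naive WT libraries had a relative signal of 2.81, 4.02 and 4.23 and its LBRKO libraries 3.06, 2.02 and 2.04. The TKO libraries had 0.711, 0.525 and 0.806 and the QKO libraries 0.333, 0.267 and 0.309. TKO and QKO were separate from WT and from each other, while LBRKO overlapped WT. The changes were -0.62 ± 0.23 in LBRKO (limma adjusted p = 0.0172), -2.27 ± 0.23 in TKO (adjusted p = 1.02e-11) and -3.21 ± 0.23 in QKO (adjusted p = 2.3e-18). Beside it Klrc1, the inhibitory NKG2A gene, changed by -1.34 ± 0.20 in TKO (limma adjusted p = 2.56e-07) and -2.73 ± 0.20 in QKO (adjusted p = 1.37e-17).

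Set against its sisters, Klrc2 stood lower in the TKO and QKO lines. The per-bin ratio of Klrc2 to the mean of Klrc1 and Klrc3 in naive cells was 0.692 ± 0.15 for WT and 0.827 ± 0.023 for LBRKO, against 0.405 ± 0.16 for TKO and 0.460 ± 0.11 for QKO (SD, n = 3). In EpiLC it was 0.868 ± 0.11, 0.774 ± 0.080, 0.420 ± 0.053 and 0.365 ± 0.021. The TKO and QKO libraries were all below the WT libraries at both stages. In WT cells the ratio was 0.679 and 0.821 for naive and EpiLC LMNB1 and 0.698 and 0.696 for IGG. QKO cells were derived from TKO cells and share any difference in DNA at Klrc2, and with IGG from WT cells only this and a difference in LAP2B cannot be told apart.

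Within the Ly49 block the lamin-deficient lines also differed from gene to gene. Klra14-ps, a pseudogene, fell by 1.82 on the log2 scale in naive TKO and by 3.08 in naive QKO (SE 0.26 each, limma adjusted p = 7.2e-08 and 1.51e-15). Its relative signal was 2.69, 3.05 and 2.60 for WT, 0.632, 0.950 and 0.597 for TKO and 0.244, 0.210 and 0.265 for QKO, so the 3 groups did not overlap. Of its 50-base words 23.7% also occur in other members, and at this gene too a difference in DNA shared by the TKO and QKO lines and a difference in LAP2B cannot be told apart. Klra17 fell less, with 11.7, 10.2 and 12.7 for TKO against 3.22, 5.38 and 4.79 for QKO, and its changes were -0.63 ± 0.14 (limma adjusted p = 0.000131) and -2.0 ± 0.14 (adjusted p = 5.47e-19). Klrh1 changed by -1.55 ± 0.22 in TKO and -2.69 ± 0.22 in QKO, and Klri1 by -1.19 ± 0.16 and -2.66 ± 0.16 (all limma adjusted p at or below 5.45e-08).

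**Figure D2:**
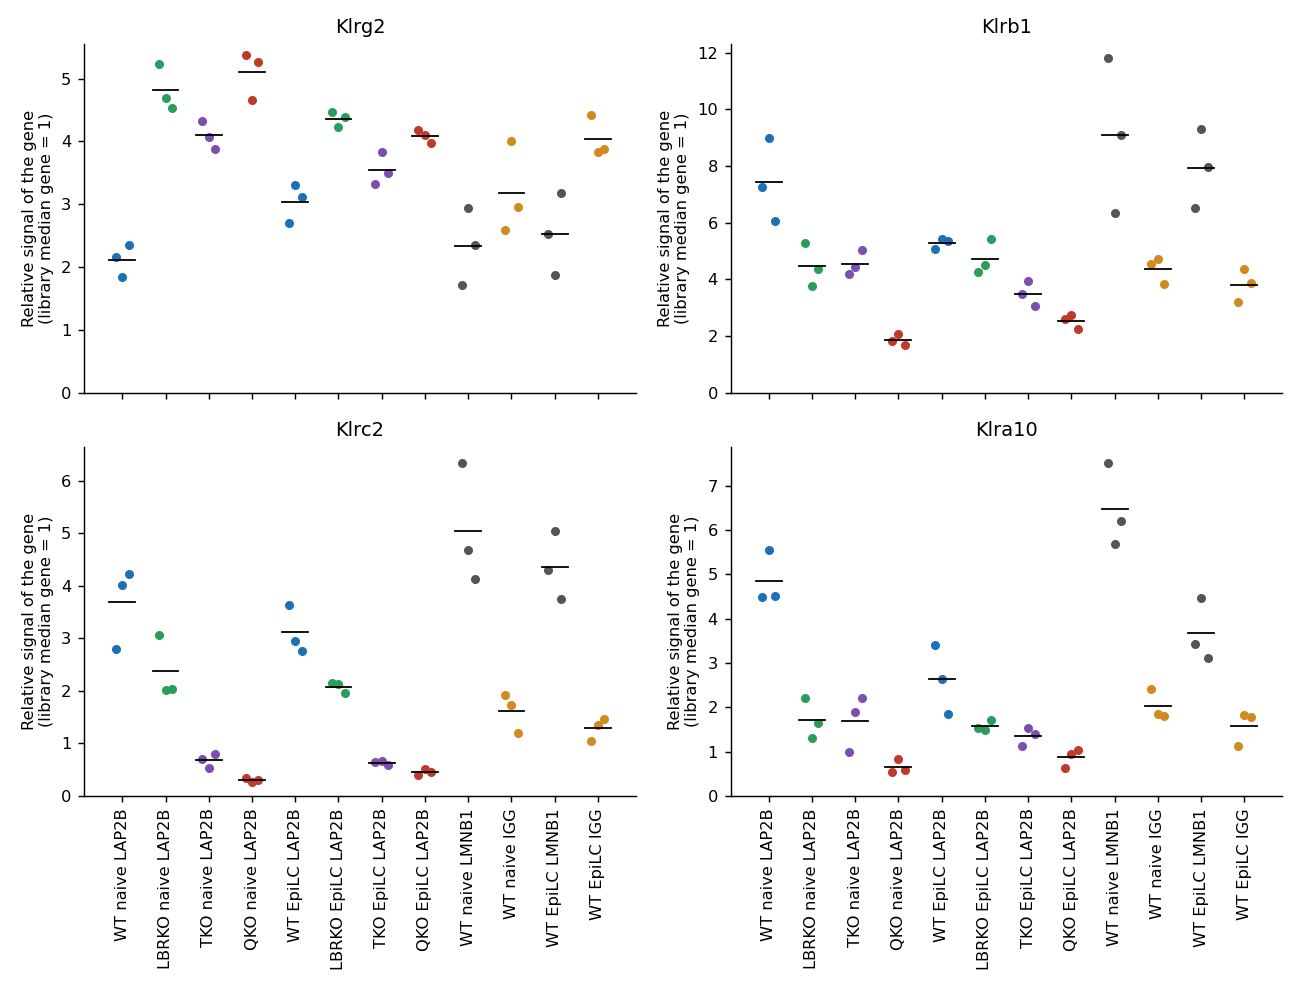
Relative signal of Klrg2, Klrb1, Klrc2 and Klra10 in each of the 36 libraries, in 12 groups of 3 (points are libraries, black lines are means). Klrc2 drops from 2.81 to 4.23 in naive WT to 0.267 to 0.333 in naive QKO, and Klrg2 is the gene that lies higher in the mutants.

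In EpiLC LAP2B was also lower than in WT at most members in TKO and QKO, while in LBRKO the members were mixed. The study did not use LAP2B as a stand-in for the lamina in EpiLC, so these values are given as LAP2B signal alone. In TKO 25 members fell and 6 did not pass, with a median of -0.91 against 0.04 over all genes, where 9.97% of all genes fell and 8.68% rose. In QKO 29 fell and 1 rose, with a median of -1.30 against 0.02, where 17.8% fell and 18.3% rose. In LBRKO 11 fell and 1 rose, with a median of -0.43 against 0.01, where 10.1% fell and 13.3% rose. All libraries were below WT at 17 members in LBRKO, 27 in TKO and 29 in QKO, where 17.9%, 17.7% and 24.3% of all genes were. In LBRKO 5 members had all libraries above WT instead, where 20.6% of all genes did: Klrg2, which passed, and Klrg1, Klrb1c, Klrb1b and Klrb1-ps1, which gave 0.40, 0.41, 0.36 and 0.16 and did not pass. Klrg1 had given -0.28 in naive LBRKO and -0.43 in naive TKO, and gave 0.23 in EpiLC TKO, none of which passed.

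Among the comparisons with WT, the LBRKO count in EpiLC moved the most when 1 library was left out. The members that passed were Klrg2, which rose, and Klri1 and 10 of the 14 Klra genes, which fell. With spike-in scaled values 0 members passed in limma, where 9.03% of all genes did, and 7 members did so at an unadjusted p under 0.05, where 22.2% of all genes did. The edgeR and DESeq2 fits on recovered reads called 15 members each, where they called 23.4% and 25.2% of all genes. The 12 members that passed became 2 without WT EpiLC replicate 1, 7 without LBRKO EpiLC replicate 2 and 7 without LBRKO EpiLC replicate 3. Klra9 and Klra8, which encode an inhibitory and an activating Ly49 receptor, gave the most negative changes, -0.73 ± 0.20 (limma adjusted p = 0.00394) and -0.71 ± 0.22 (adjusted p = 0.0128). Klra9 had 4.90, 3.68 and 4.46 in WT and 2.82, 3.04 and 1.98 in LBRKO, which did not overlap.

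Klrc2 and Klra14-ps gave the most negative changes in both lines without lamins in EpiLC too. The Klrc2 values were 3.63, 2.95 and 2.77 for WT and 2.15, 2.14 and 1.95 for LBRKO. For TKO they were 0.651, 0.667 and 0.582 and for QKO 0.398, 0.518 and 0.444. No genotype overlapped another. Its change was -0.55 ± 0.23 in LBRKO, which did not pass (limma adjusted p = 0.069), -2.13 ± 0.23 in TKO (adjusted p = 2.66e-09) and -2.54 ± 0.23 in QKO (adjusted p = 5.08e-12). Klra14-ps fell by 1.38 and by 2.25 in TKO and QKO (SE 0.26 each, limma adjusted p = 0.000146 and 2.15e-09). Klra17 gave -0.17 ± 0.14 in TKO (limma adjusted p = 0.395) and fell by 0.83 in QKO (SE 0.14, adjusted p = 2.93e-06).

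Klrg2, outside the cluster, had 2.70, 3.31 and 3.11 in WT EpiLC and 4.46, 4.22 and 4.39 in the LBRKO libraries. The TKO libraries had 3.32, 3.83 and 3.49 and the QKO libraries 4.18, 4.10 and 3.98. Every mutant library exceeded the WT libraries, the closest being 3.32 in TKO against 3.31 in WT. It rose in EpiLC of LBRKO (0.51 ± 0.14, limma adjusted p = 0.00538) and QKO (0.42 ± 0.14, adjusted p = 0.017), and gave 0.22 ± 0.14 in TKO (adjusted p = 0.288). None of these passed on the spike-in scale, and QKO turned to -0.44 (limma adjusted p = 0.147).

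In EpiLC 3 members, Klrk1, Klra17 and Klra1, fell in QKO relative to TKO (median of all members -0.44 against -0.02 over all genes), where 0.27% of all genes fell. The changes of these 3 genes were -0.80 ± 0.21, -0.66 ± 0.14 and -0.67 ± 0.17 (limma adjusted p = 0.0369, 0.00569 and 0.0351). The count of 3 became 0 without QKO EpiLC replicate 1 and 1 without QKO EpiLC replicate 2, TKO EpiLC replicate 1 or TKO EpiLC replicate 3. It became 5 without QKO EpiLC replicate 3. When left on the spike-in scale, 27 members fell, where 28.4% of all genes did.

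The change in LBRKO graded along the cluster. From the Klrb1 genes to the Klra genes the block medians in naive cells ran -0.31, -0.57, -0.74, -1.0 and -1.15, and in EpiLC 0.06, -0.07, -0.50, -0.43 and -0.60. Over the 29 cluster genes the rank correlation of the change with position was -0.80 in naive cells and -0.70 in EpiLC. The other genes along this stretch also went lower. From 125 to 130 Mb their LBRKO median was 0.39 in naive cells and 0.35 in EpiLC. From 130 to 135 Mb it was -0.46 and 0.18. In TKO the naive block medians were -0.67, -1.21, -1.67, -1.19 and -1.15, and in QKO -1.73, -2.75, -2.73, -2.69 and -2.34, with rank correlations with position of -0.27 and -0.24. The most negative block median was that of the Klrc genes in TKO, and in QKO the 3 blocks in the middle of the cluster lay close together.

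GC content also varied along the cluster, with a rank correlation with position of -0.60 over the 29 genes. The rank correlation of the change with GC content was 0.62, 0.67 and 0.69 in naive LBRKO, TKO and QKO and 0.68, 0.59 and 0.66 in EpiLC. With the share of 50-base words unique in the genome it was 0.29, 0.34 and 0.27, then 0.49, 0.22 and 0.22. The genes are neighbours measured in the same libraries, so these are descriptions, and the part of GC content in the gradient was not tested. Among the 19 members with at least 80% unique words, 13 passed in naive LBRKO, 17 in naive TKO and 19 in naive QKO, where 56.6%, 49.4% and 75.6% of all genes passed in either direction. These counts do not separate falls from rises, and Klrg2, which rose, is among the 19. The LBRKO count is not far above the share of all genes and is no result about these members. Klra10 and Klra3, which fell the most in naive LBRKO, are not among the 19.

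**Figure D3:**
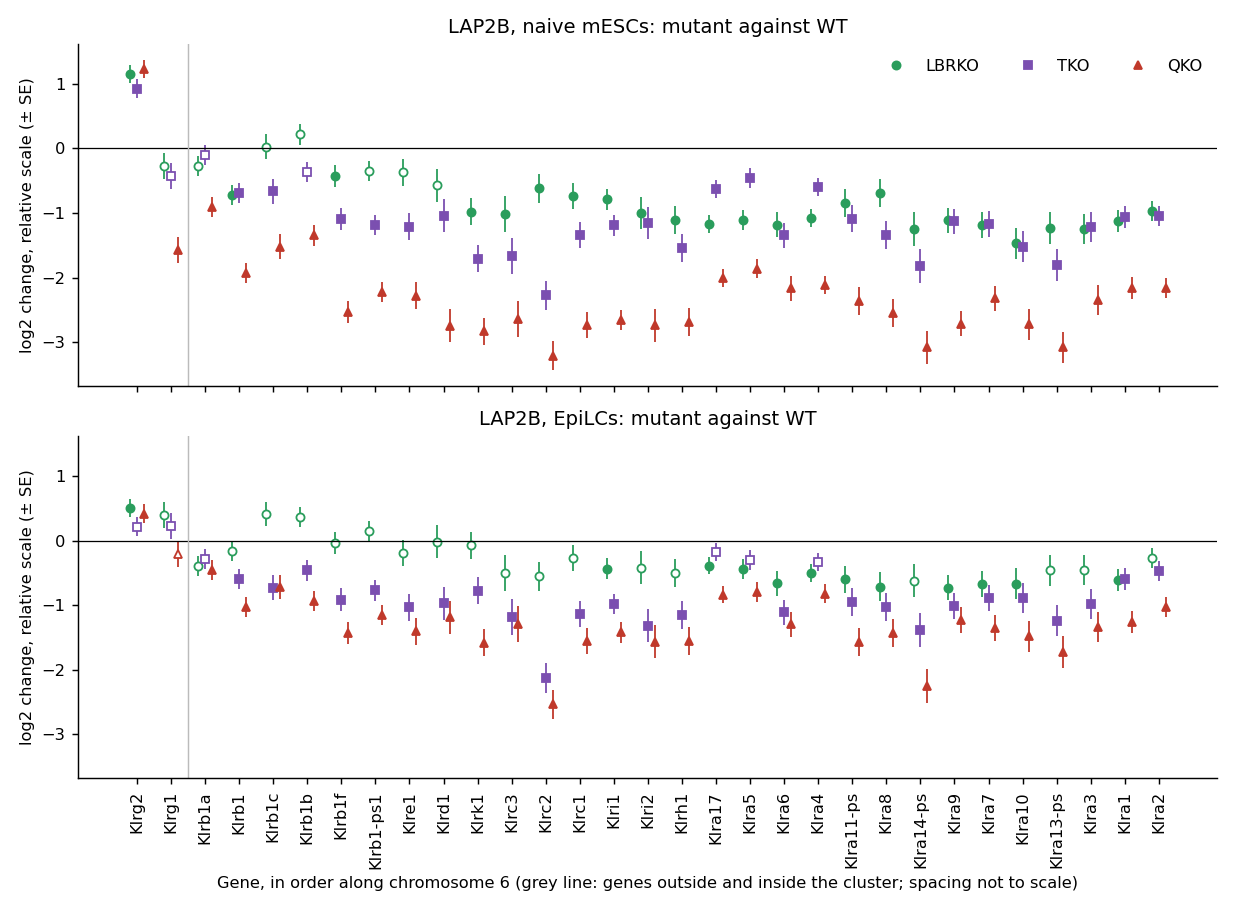
LAP2B log2 change with SE against WT at the 31 genes in chromosome order for LBRKO, TKO and QKO, in naive cells and EpiLC (filled points passed an adjusted p under 0.05, open points did not). The naive LBRKO block medians run from -0.31 at the Klrb1 genes to -1.15 at the Klra genes, while QKO is low across the whole cluster.

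The median of chromosome 6 moved the other way in LBRKO, but not evenly along the chromosome. Over the 4070 other chromosome 6 genes tested, the median LAP2B change in LBRKO was 0.28 in naive cells and 0.33 in EpiLC, against 0.06 and -0.0034 over the genes of other autosomes. In EpiLC the chromosome stood apart from all other chromosomes, whose medians ran from -0.09 to 0.09, while in naive cells they ran from -0.21 to 0.38 and included it. In TKO and QKO the chromosome 6 median was negative, at -0.30 and -0.65 in naive cells and -0.16 and -0.27 in EpiLC. The medians of the other chromosomes ran from -0.25 to 0.24 and from -0.71 to 0.79 in naive TKO and QKO, and from -0.14 to 0.23 and from -0.21 to 0.35 in EpiLC, so chromosome 6 was the lowest in naive TKO and in both EpiLC comparisons. Whether chromosome 6 copy number differed between the WT line and any of the 3 mutant lines was not measured here, and its part in these values cannot be told apart from LAP2B.

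The genes around the receptors gave a different picture with distance. Over the 549 other genes within 5 Mb of the cluster, the LBRKO median was 0.14 in naive cells and 0.33 in EpiLC, while the members' median was -0.97 and -0.43, a difference of -1.11 and -0.76. Within 2 Mb (306 genes) the neighbours' median was -0.23 and 0.21, so in naive LBRKO the nearest genes had the same sign as the receptor genes. The difference between members and neighbours within 5 Mb was -0.70 in naive TKO and -1.49 in naive QKO, and -0.70 and -0.92 in EpiLC. With libraries scaled to the median chromosome 6 gene, 23 members were lower in EpiLC LBRKO in place of 11, where 31.2% of all genes were lower in place of 10.1%. With scaling to the median gene within 5 Mb 24 were, where 31.6% of all genes were. None was higher under either scaling. Klrg2 then gave 0.13 (limma adjusted p = 0.498) and 0.10 (adjusted p = 0.65), although it lies far from the genes of the second scaling. Around Klrg2 itself, in the window from 35 to 40 Mb, the LBRKO median was 0.75 in naive cells and 0.44 in EpiLC.

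The receptor genes were also set beside genes with a like LMNB1 level, as a description. In naive cells 27 of the 31 members were in the highest of 4 equal classes of all genes by WT LMNB1 per bin, and their median LBRKO change was -0.98. The other chromosome 6 genes of that class had a median of -0.46 and those of other autosomes -0.66. In EpiLC the 25 members of that class had -0.42, against 0.08 and -0.17. Klrg2 was the 1 member in the lowest LMNB1 class, where the median naive change was 0.75 on chromosome 6 and 0.41 on other autosomes, beside its own 1.16. In naive TKO and QKO the 27 members had medians of -1.17 and -2.37, against -0.68 and -1.41 in the chromosome 6 genes of the class.

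**Figure D4:**
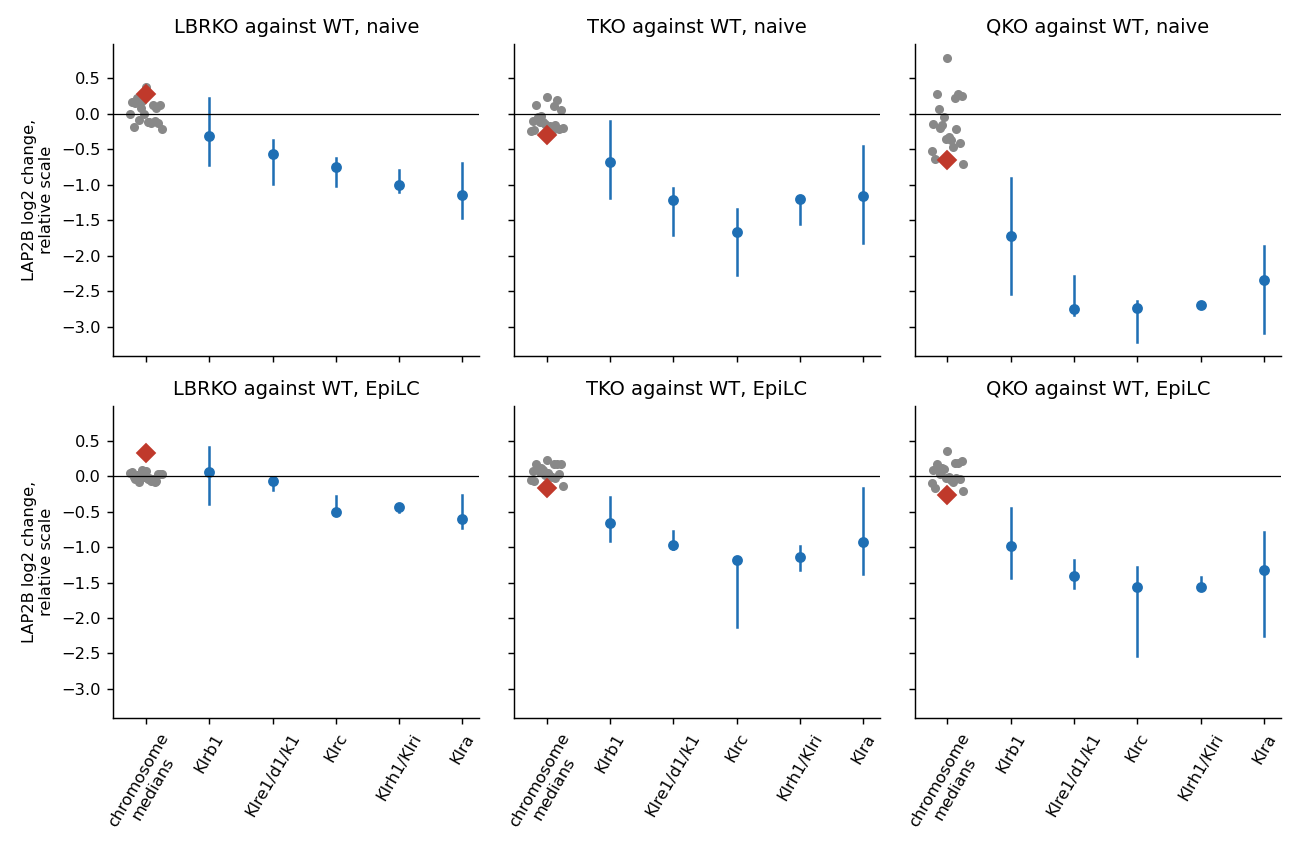
Median LAP2B log2 change against WT of each other chromosome (grey dots), of chromosome 6 without the receptor genes (red diamond) and of the receptor blocks (blue dot with the range of its genes), for LBRKO, TKO and QKO in naive cells and EpiLC. In LBRKO chromosome 6 sits at 0.28 and 0.33 while the Klra block sits at -1.15 and -0.60.

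Within WT, LAP2B at the cluster was lower in EpiLC than in naive cells. From naive cells to EpiLC 24 members fell and 1, Klrg2, rose (median -0.64 against -0.07 over all genes), where 17.1% of all genes fell and 15.1% rose. LMNB1 fell at 13 members (median -0.41 against -0.04), where 7.09% of all genes did, and IGG fell at Klri1 alone (median -0.37 against -0.02), where 0.418% did. Klra10 had 4.49, 5.55 and 4.52 in naive WT and 3.42, 2.64 and 1.86 in WT EpiLC, which did not overlap, with a LAP2B change of -0.89 ± 0.24 (limma adjusted p = 0.00326) and an LMNB1 change of -0.81 ± 0.17 (adjusted p = 0.00333). IGG at Klra10 went from 2.42, 1.84 and 1.81 to 1.12, 1.81 and 1.78, which overlapped, a change of -0.36 ± 0.22 that did not pass (adjusted p = 0.495). All EpiLC libraries were below all naive libraries at 25 members for LAP2B, 12 for LMNB1 and 18 for IGG, where 22.7%, 17% and 10.5% of all genes were. The members' IGG median thus had the same sign as that of LMNB1 and nearly its size, and its part in the LAP2B and LMNB1 differences was not tested.

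These stage counts rested on the scale and on single libraries. With spike-in scaled values 0 members passed in limma for LAP2B, LMNB1 or IGG, where 12.1%, 8.25% and 0% of all genes did in the 3 tables. At an unadjusted p under 0.05 there were 12, 2 and 2 members, beside 26.5%, 22.8% and 34.8% of all genes. On recovered reads edgeR called 26, 12 and 1 members, beside 30.2%, 13.6% and 0.75% of all genes, and DESeq2 24, 13 and 2, beside 31.8%, 16.3% and 1.4%. The 25 LAP2B members became 14 without WT naive replicate 2 and 15 without WT EpiLC replicate 3. The 13 LMNB1 members became 2 without WT EpiLC LMNB1 replicate 1, 2 without replicate 3, 5 and 6 without WT naive LMNB1 replicates 1 and 3, and 21 without WT naive LMNB1 replicate 2. The 1 IGG member was lost without WT EpiLC IGG replicate 1, 2 or 3 or WT naive IGG replicate 1, and 2 passed without WT naive IGG replicate 2.

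The effect of QKO also differed between the stages at most members. By a limma test of the EpiLC change minus the naive change, 27 members passed for QKO, where 45.8% of all genes did, and 26 of them had a less negative change in EpiLC. For LBRKO 6 members passed, where 19.8% of all genes did, and for TKO 2 did, where 9.6% of all genes did. The LBRKO and TKO shares of the members are near or below those of all genes and are no result about the receptor genes. At Klrk1 the difference was 0.91 ± 0.29 for LBRKO (limma adjusted p = 0.0225), 0.93 ± 0.29 for TKO (adjusted p = 0.0341) and 1.25 ± 0.29 for QKO (adjusted p = 0.00043). The LBRKO count of 6 became 1, and the TKO count of 2 became 0, without WT naive replicate 2. With spike-in scaled values 26 members passed for QKO, and 0 did in limma for LBRKO and TKO, where 29.6%, 0.627% and 0.833% of all genes passed. At an unadjusted p under 0.05 there were 1 and 8 members for LBRKO and TKO, beside 17.6% and 20.4% of all genes. The edgeR fit on recovered reads called 26, 7 and 1 members for QKO, LBRKO and TKO (43.1%, 19.3% and 8.22% of all genes), and DESeq2 called 23, 6 and 1 (44%, 22.6% and 11.4%).

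A list of 29 other genes of the complex, lectin-like and other genes between and beside the receptors, had 26 tested. In naive cells 12 of the 26 fell and 2 rose in LBRKO (median -0.37), 22 fell and 1 rose in TKO (median -0.78), and 25 fell and 1 rose in QKO (median -2.12). The shares of all genes that fell and rose in these comparisons were 27.7% and 28.9%, 27.6% and 21.8%, and 42.5% and 33.1%. In EpiLC the counts were 3 lower and 5 higher in LBRKO, 19 lower in TKO, and 24 lower and 1 higher in QKO, beside shares of all genes of 10.1% lower and 13.3% higher, 9.97% and 8.68%, and 17.8% and 18.3%. On the relative scale Clec2l, which lies beside Klrg2 and not in the cluster, rose in naive LBRKO by 1.39 and in naive QKO by 0.65, and Ybx3 rose in naive LBRKO by 0.50. The most negative changes were those of the alpha-macroglobulin family genes Mug2 (-1.07) and Mug1 (-1.03) in naive LBRKO, and of the dendritic cell receptor gene Clec9a (-2.60) and of Clec1a (-2.53) in naive QKO.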

How the data were processed

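Per the study's methods, the authors mapped CUT&RUN read pairs to mm39 with Bowtie2 2.3.5.1, selected primary alignments in proper pairs without duplicates with SAMtools (1.10 in the submitters' processing notes), and computed RPKM in bins with deepTools, scaled by yeast (sacCer3) spike-in reads. A mapping quality filter and the spike-in constant for LMNB1 and IGG are not given in the sources used here. The deposited signal of a gene is taken as the sum over the 1000 bp bins it touches: in all 343 sets of genes within 1 shared bin the values were equal. All deposited values were whole multiples of 1 read (100% within 0.05 of a read), so reads were recovered.

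Values were divided by the library's median gene, the lowest 0.1 of genes by mean value were left out (all 31 members stayed), a pseudocount of 0.1 of the median was added, and log2 values were tested two-sided with limma 3.58.1 (trend) in R 4.3.3, all 24 LAP2B libraries in 1 model and LMNB1 and IGG in models of their own, with Benjamini-Hochberg adjustment over all genes. A fold change on this scale understates that of low genes. No library pair was merged, and 2 H3K9me3 samples were not analysed here. Code was tested on simulated data. Alternatives were edgeR 4.0.16 and DESeq2 1.42.0 on recovered reads, other scalings, filters and pseudocounts, a replicate block and leaving out each library.

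Members, lists and tests were chosen with earlier results of these data known. Named with values were the protein-coding member with most bins in each subfamily, the 2 members with the largest rise and the 2 with the largest fall in each comparison with WT, members moving oppositely in 2 genotypes (there were 0), and the 2 genes of each list that rose or fell most. Klrc1, Klrg1, Klrb1c, Klrb1f, Klri2, Klra1 and others named beside them fall outside this rule and were chosen after their values were seen.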

Additional observations from a re-analysis of the deposited data

Results flagged for a closer look

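The effect of a genotype differed between the stages at some receptor genes, by a limma test of the difference itself (EpiLC change minus naive change, Benjamini-Hochberg over all genes). It passed at 27 of the 31 members for QKO, at 6 for LBRKO and at 2 for TKO (45.8%, 19.8% and 9.6% of all genes), so the LBRKO and TKO counts are no more than the rate over all genes and say nothing particular about the receptor genes. Klrg2 had the opposite sign to the other called members in each of the 3 genotypes. The LBRKO and QKO medians of the members were 0.52 and 1.10, against 0.04 and 0.21 over all genes. These differences use the same WT libraries, and LAP2B in WT cells also differed between the stages at most members.

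In QKO the named receptor genes gave differences of 1.56 at Klrd1, 1.49 at Klra9, 1.25 at Klrk1, 1.25 at Klra10, 1.24 at Klri1, 1.17 at Klra17, 1.13 at Klrh1, 1.12 at Klra8, 1.01 at Klra3, 0.90 at Klrb1 and 0.87 at Klre1 on the log2 scale, and -0.82 at Klrg2. The named Klrc2 and Klra14-ps gave 0.68 and 0.83 and did not pass (limma adjusted p = 0.0774 and 0.0578). For Klrd1, the CD94 gene, relative signal went from 3.12, 4.55 and 2.79 in naive WT to 0.256, 0.733 and 0.382 in naive QKO, and from 2.67, 1.44 and 2.00 in EpiLC WT to 0.636, 0.939 and 0.899 in EpiLC QKO. The groups did not overlap at either stage.

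In LBRKO the differences were 0.91 at Klrk1, 0.78 at Klra17 and -0.64 at Klrg2, and Klra5, Klra4 and Klra2 passed too. In TKO they were 0.93 at Klrk1 and -0.71 at Klrg2. The LBRKO count fell from 6 to 1 without WT naive replicate 2, to 2 without LBRKO naive replicate 3 or WT EpiLC replicate 2, and to 3 without LBRKO naive replicate 2 or WT EpiLC replicate 3. The TKO count fell from 2 to 0 without WT naive replicate 2 and to 1 without TKO EpiLC replicate 3, TKO naive replicate 2, WT EpiLC replicate 2 or WT EpiLC replicate 3.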

How the results depend on the processing

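The member counts of naive LBRKO, TKO and QKO against WT, of EpiLC TKO and QKO against WT and of naive QKO against TKO stayed within 1.5 times under every scaling, filter, pseudocount and tool tried. Another count took only the 19 members with at least 0.8 unique words in place of all 31. It gave 13, 17, 19, 15, 18 and 18 for these comparisons, 7 for EpiLC LBRKO and 7 for the LMNB1 stage comparison. Shares in brackets are those of all genes called under the same setting. On the spike-in scale EpiLC LBRKO gave 0 (9.03%), EpiLC QKO against TKO 27 (28.4%), the stage comparisons of LAP2B, LMNB1 and IGG 0 each (12.1%, 8.25% and 0%), and the LBRKO and TKO stage differences 0 each (0.627% and 0.833%), and Klrg2 in EpiLC QKO reversed to -0.44. EpiLC LBRKO, 12 as reported (23.4%), gave 23 on the chromosome 6 scale (35.5%), 24 on the local scale (35.1%) and 7 with no filter on low values (19.7%). EpiLC QKO against TKO, 3 as reported (1.2%), gave 1 on the local scale (2.19%), 0 with no filter (0.326%), 6 with genes of at least 10 kb (3.76%), 9 with only its own groups in the model (8.18%) and 7 with DESeq2 (3.68%). The LBRKO stage difference, 6 as reported (19.8%), gave 2 with mean scaling (20.5%), 3 on the local scale (16.1%) and 2 with no filter (14.8%). The TKO stage difference, 2 as reported (9.6%), gave 1 with mean scaling (10.3%), on the chromosome 6 and local scales (8.65% and 8.69%), with no filter (6.6%), with only its own groups (6.77%), with edgeR (8.22%), with DESeq2 (11.4%) and, an alternative chosen after seeing the data, without Klrg1 and Klrg2. The LAP2B stage comparison, 25 as reported (32.2%), gave 12 with mean scaling (31%) and 11 on the local scale (29.9%), and LMNB1, 13 as reported (13.4%), gave 5 (13.3%), 5 (13.1%) and, with no filter, 0 (0.905%). The IGG stage comparison, 1 as reported (0.49%), gave 0 with mean scaling (0.415%), on the local scale (0.166%), with a pseudocount of 0.02 (0.19%) and with no filter (0%), 6 with genes of at least 10 kb (3.8%) and 2 with DESeq2 (1.4%). With values not divided by bins, 7 and 3 members were above the 75th percentile of naive and EpiLC IGG in place of 3 and 0. Against neighbours within 2 Mb the difference of the medians was -0.74 for naive LBRKO, -1.09 for naive QKO and -0.66 for EpiLC QKO. The cause of these shifts was not tested.

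Leaving out 1 library at a time gave 21 to 25 members for naive LBRKO, 27 to 29 for naive TKO, 31 for naive QKO, 2 to 13 for EpiLC LBRKO, 19 to 25 for EpiLC TKO, 28 to 30 for EpiLC QKO, 30 to 31 and 0 to 5 for QKO against TKO in naive cells and EpiLC, 1 to 8, 0 to 2 and 26 to 28 for the stage differences of LBRKO, TKO and QKO, and 14 to 26, 2 to 21 and 0 to 2 for the stage comparisons of LAP2B, LMNB1 and IGG. The shares of all genes that passed in these reduced fits are not given here. A count that moved, here or in the leave-one-out counts above, is therefore no result about the receptor genes in particular. The named genes gave 72 changes that passed, whose 1288 alternative fits kept direction and call in 1237 cases, lost the call in 50 and reversed in 1.

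The labels do not say whether libraries of the same replicate number were prepared together. Correlations of same-numbered libraries ran from -0.25 to 0.18, and those of differently numbered libraries from -0.15 to 0.28. Being taken from deviations around means of 3 libraries, these correlations cannot decide it. With the replicate block the counts were 24, 28, 31, 12, 25 and 30 for the comparisons with WT, 30 and 3 for QKO against TKO, 6, 2 and 27 for the stage differences, and 25, 10 and 1 for the stage comparisons, none moved by over 1.5 times. The shares of all genes with the block are not given here either.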

Other observations

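Genes whose products act with these receptors were counted in the same way. The list of 21 signalling partners (adaptors, kinases and phosphatases) had 11 higher and 4 lower in naive LBRKO, 11 and 6 in naive TKO and 11 and 9 in naive QKO by limma, and 2 and 2, 7 and 1, and 9 and 2 in EpiLC. Of all genes 28.9% rose and 27.7% fell in naive LBRKO, 21.8% and 27.6% in naive TKO and 33.1% and 42.5% in naive QKO, and in EpiLC 13.3% and 10.1%, 8.68% and 9.97%, and 18.3% and 17.8%. In naive QKO the most positive changes were those of Lck (2.44), a kinase of receptor signalling, and Grb2 (2.13), an adaptor, and the most negative those of Vav3 (-1.87) and Sh2d1b2 (-1.45). Of the 17 listed ligands 11 were tested, and 1 rose and 6 fell in naive LBRKO, 3 and 6 in naive TKO and 4 and 7 in naive QKO. On the relative scale Cdh1, the E-cadherin that Klrg1 binds, and H2-K1, an MHC class I gene, rose in naive QKO by 2.57 and 2.01. Clec2i and Clec2g, ligand genes that lie within the natural killer gene complex itself, fell by 2.27 and by 2.03.

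NK cell receptors encoded on other chromosomes mostly gave lower LAP2B where they passed. Of 14 tested of 16 listed, 6 fell and 1 rose in naive LBRKO and 11 and 10 fell in naive TKO and QKO, and in EpiLC 3 fell and 2 rose in LBRKO and 6 and 7 fell in TKO and QKO. The most negative changes in naive QKO were those of Cd244a (-2.0) and Lilrb4a (-1.82). The lists were chosen with earlier results of these data known, and the shares of all genes given above hold for each of them. All list values, those of the neighbours of the receptors included, are on the relative scale, and spike-in scaled values are not given for them. The median of all genes moved by -1.24 in naive QKO on the spike-in scale, so a rise there is relative to the median gene.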
